A study of Oryza sativa with 6 samples.

Results

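Roots held in 50 µM hexavalent chromium, Cr(VI), for 24 h were set against roots held in water on 3 two-colour arrays, which are 3 of the 6 arrays in the series and were chosen by their exposure label. The rice seedlings, of cultivar TN-67, were 6 days old, with Cy5 on the RNA of treated roots and Cy3 on the RNA of roots in water on each array. The other 3 arrays held roots of the short exposure, pooled from 1 h and 3 h at the same dose, against water in the same way. The labels call the replicates biological and do not say whether the arrays shared water RNA, and no transgene or mutant was involved. Each value below is the log2 ratio of Cr(VI) over water, so that 1 stands for a 2-fold rise.

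Cr(VI) is a strong oxidant that plant roots take up through anion carriers, mainly those for sulfate, and reduce inside the cell to trivalent chromium, with reactive oxygen species formed on the way. MicroRNAs are short RNAs that guide the cleavage or the translational block of matching transcripts, and several plant families are known to follow the supply of phosphate, copper or sulfate. The loci of the array carry locus numbers of the Rice Annotation Project (RAP), whose first digits give the chromosome and whose order follows the chromosome. None of the 29690 array loci could be paired with a symbol or product, so each locus is given by its number, with no role. For the same reason 0 of the 14 root and green-shoot marker loci could be read, and the tissue label was not checked against markers.

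The 3 arrays of the 24 h exposure were of like quality. In the treated channel 77.29% to 80.26% of the spots stood well above background, against 77.73% to 82.53% in the control channel, and 0 spots were saturated. Median spot signals were 293.5 to 365 in the treated channel and 403 to 518.5 in the control channel, over local backgrounds of 60.5 to 61 and 38 to 40.5. Across genes, the ratios of replicates 1 and 2 correlated at 0.959, those of replicates 2 and 3 at 0.935 and those of replicates 1 and 3 at 0.916. These correlations run across genes, which are not independent replicates.

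After 24 h, Cr(VI) had raised 1147 of 23484 tested genes (4.88%) by 2-fold or more over water, and lowered 803 (3.42%) by as much. A gene counted when its adjusted p from one limma fit over the 6 arrays was under 0.05 and its mean log2 ratio was at least 1 in size. Among the rising genes, 804 lay between 1 and 2 on the log2 scale, 223 between 2 and 3, 84 between 3 and 4, 26 between 4 and 5, and 10 at 5 or above. The falling genes were more often close to the threshold, with 659 of 803 between 1 and 2 in size, 113 between 2 and 3, 24 between 3 and 4, 6 between 4 and 5 and 1 beyond 5. By adjusted p alone, 15177 genes (64.6%) were called, 7912 higher (33.7%) and 7265 lower (30.9%). A lower amount of a transcript per cell and fewer cells of a type that holds it cannot be told apart in these whole roots.

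The share of higher genes depended on the processing. Of the genes called, 52.1% were higher after loess normalization, against 36.4% after median centring and 47.5% with Agilent's processed signals. Of the 2-fold genes, 58.8% were higher after loess, against 41.3% and 51.9%. Median centring moved the median ratio of all genes by -0.113 on the log2 scale. The processed signals differ from the main values in background correction as well as in normalization. Of the 1950 genes with a 2-fold call, 1705 were 2-fold the same way after median centring, which gave 960 higher and 1365 lower in all, and 1913 with processed signals, which gave 1870 and 1731. None of the 1950 had the opposite sign in either, and both settings called further genes. Cy5 always marked the treated RNA, so any preference of a probe for a dye is part of every ratio given.

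The 2-fold genes were chosen by their mean and spread over the 3 arrays, so their values by array are a description. Of the 1117 rising genes with a value on every array, 1114 had the same sign on all 3, as had all 783 of the falling genes with 3 values. The median ratio of the rising genes was 1.66 on replicate 1, 1.59 on replicate 2 and 1.40 on replicate 3, and that of the falling genes was -1.42, -1.38 and -1.33. The median SD over the arrays was 0.204 for the rising and 0.161 for the falling genes.

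Ranked by these values, the largest rise was that of Os10g0527400, with log2 ratios of 6.16, 6.14 and 6.30 on replicates 1, 2 and 3 and a mean of 6.20 ± 0.09 (SD, n = 3; limma adjusted p = 6e-10). Its treated signal stood at 16.3 on the log2 scale, against 10.1 in the water channel. The rank depended on the background correction, compared here among the named loci only. With processed signals Os10g0527400 had 6.29, below Os04g0206600 at 7.85, Os09g0483200 at 7.70 and Os02g0593200 at 7.62. Also above it were Os03g0693900, Os01g0850900, Os06g0507300, Os09g0452700, Os04g0203600, Os03g0694000 and Os03g0693800, the last at 6.32. With an offset of 10, Os10g0527400 had 6.28, below Os09g0483200 at 6.31 and Os04g0203600 at 6.30. Os10g0525600, a near neighbour on chromosome 10, had 5.71, 5.91 and 5.80, a mean of 5.81 ± 0.10 (SD, n = 3; limma adjusted p = 2.7e-09). Both were thus tight across the 3 arrays, and both had lower ratios on the 3 short arrays, with means of 4.94 and 4.55. Os04g0203600 had 5.83, 5.97 and 5.31 at 24 h, and its short mean of 5.17 was not shown to differ from that (difference 0.53, SE 0.192, limma adjusted p = 0.0592).

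Several of the strongest rises were far smaller after the short exposure. Os02g0593200 had ratios of 5.33, 5.24 and 4.84 at 24 h against -0.23, 0.16 and -0.15 on the short arrays, a difference of 5.21 (SE 0.151, limma adjusted p = 2e-06). Os09g0483200 had 5.41, 5.17 and 5.69 at 24 h against 1.5, 1.55 and 1.65, a difference of 3.86 (SE 0.130, limma adjusted p = 3.47e-06). For both loci the 2 sets of arrays lie far apart, and the water signal was well above background on 1 of the 3 arrays. Os09g0452700 averaged 4.92 ± 0.26 at 24 h and 1.87 ± 0.39 after the short exposure (SD, n = 3 each).

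Most other loci among the 12 largest rises had already risen in the short exposure. Os02g0179600 had 5.28, 5.15 and 5.23 at 24 h, with a short mean of 3.11. Os06g0146600 had 5.04, 5.03 and 4.98, the narrowest spread of the 12 (SD 0.0348), with a short mean of 2.69. Os01g0627800 had 5.41, 4.97 and 5.0, with a short mean of 3.04. All 3 lay above their short values on every array. With processed signals the difference of Os06g0146600 was -0.21 (limma adjusted p = 0.52), so neither its direction nor its call held. Os01g0155000 had 5.03, 5.06 and 4.62, and the other probe of this locus averaged 4.63. Os04g0206600 had 5.55, 4.92 and 4.69 against a short mean of 4.82, and its difference was 0.24 (SE 0.206, limma adjusted p = 0.397).

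**Figure D1:**
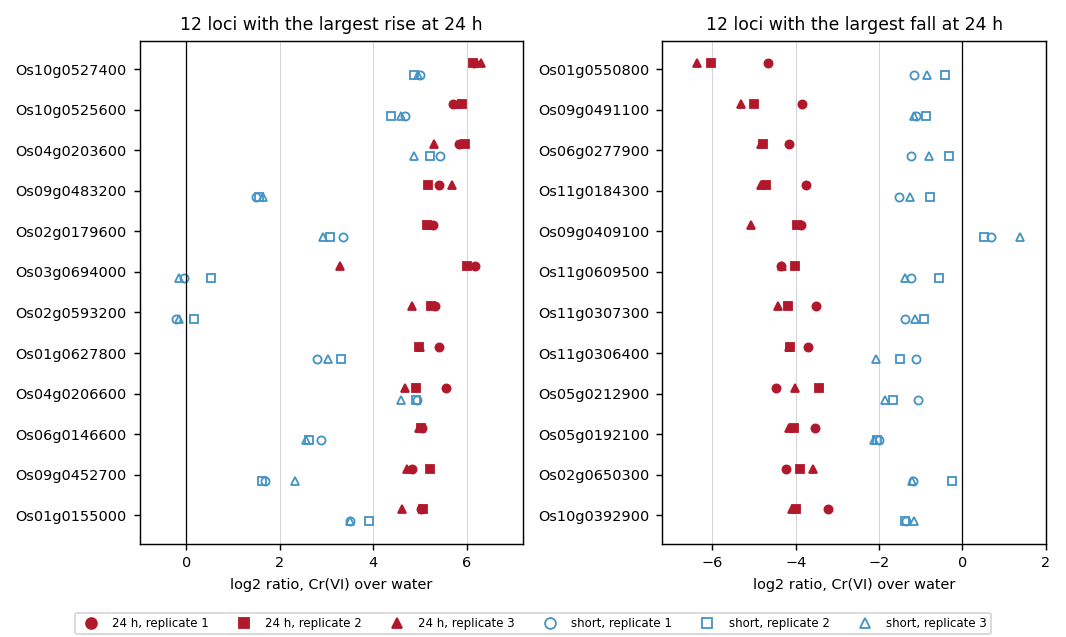
Log2 ratio of Cr(VI) over water (x axis) of the 12 loci with the largest rise (left) and the 12 with the largest fall (right) at 24 h, with the 3 arrays of the 24 h exposure as filled red symbols and the 3 of the short exposure as open blue symbols. Os03g0694000 is the rising locus whose 24 h replicate 3 (3.29) stands well below the other two (6.18 and 6.01), and Os09g0409100 is the falling locus whose short values lie above 0.

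In the same ranking the largest fall was that of Os01g0550800, with ratios of -4.67, -6.04 and -6.37 at 24 h against -1.16, -0.42 and -0.86 on the short arrays (24 h mean -5.69, SD 0.900, n = 3, limma adjusted p = 8.82e-07). Its treated signal stood at 7.96 on the log2 scale and its water signal at 13.7, so the transcript was bright in water and dim under Cr(VI). With processed signals it fell less far (-6.47) than Os06g0277900 (-6.91). Os09g0491100 had -3.86, -5.01 and -5.30, and its 4 probes agreed between -4.77 and -4.67. In both loci replicate 1 was the array with the smallest fall.

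Os06g0277900 had -4.15, -4.80 and -4.83 at 24 h, with a treated signal well above background on 2 of the 3 arrays. Os11g0184300 had -3.75, -4.70 and -4.83, Os11g0609500 had -4.35, -4.02 and -4.33, and Os02g0650300 had -4.22, -3.90 and -3.60. The 24 h values of these loci lay well below all their short values, whose means were -0.78, -1.19, -1.05 and -0.88. Os09g0409100 lay on opposite sides of 0 in the 2 exposures: it had -3.87, -3.97 and -5.09 at 24 h against 0.69, 0.52 and 1.39 on the short arrays, a difference of -5.18 (SE 0.334, limma adjusted p = 3.18e-05).

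Like the falling loci above other than Os09g0409100, the remaining falls of the 12 were of loci already lower after the short exposure. Os11g0307300 had -3.51, -4.19 and -4.44 at 24 h, and Os11g0306400, which comes shortly before it in locus order, had -3.70, -4.13 and -4.15. Their short means were -1.15 and -1.56. Os05g0192100 averaged -3.91 at 24 h and -2.05 after the short exposure, Os05g0212900 -3.98 and -1.53, and Os10g0392900 -3.77 and -1.29. All 5 lay further below 0 at 24 h than on any short array.

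For some loci one channel did not rise well above background on any 24 h array, so that only a bound on the fold can be given. It compares the bright channel with the lowest signal that counted as well above background, or with the dim channel's own signal where that was higher, and is open to dye bias. Of the rising genes, 48 had such a water channel, with bounds from 1.92 to 30.3 and a median of 2.88. Os04g0206600 was at least 30.3-fold higher, Os06g0507300 at least 20.5-fold and Os01g0850900 at least 14.3-fold (limma adjusted p = 6.51e-08, 6.52e-08 and 3.01e-08). Os06g0507300 had ratios of 4.83, 4.32 and 4.02 at 24 h and a short mean of 1.5, whereas Os01g0850900 had 4.16, 3.88 and 3.84 and a short mean of 3.37. Of the falling genes, 25 had such a treated channel, with bounds from 2.01 to 6.13 and a median of 2.39. Os07g0281700 was at least 6.13-fold lower and Os09g0349600 at least 5.39-fold lower (limma adjusted p = 1.1e-06 and 1.32e-06). Both channels were well above background on all 3 arrays for 1021 of the rising and 738 of the falling genes.

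The 24 h ratios were set against those of the short exposure by their difference. Over all 23484 genes, 3846 (16.4%) had a 24 h ratio above the short one and 5239 (22.3%) one below it. These counts were 1840 and 6400 after median centring and 4056 and 4242 with processed signals, so their balance depended on the processing. The difference reached 2-fold for 517 genes above (2.2%) and 886 below (3.77%). Of the 1147 rising genes, 727 lay above their short ratio, 105 below it and 315 were not shown to differ, with medians of 1.53 at 24 h and 0.94 after the short exposure. Of the 803 falling genes, 713 lay below their short ratio, 4 above it and 86 were not shown to differ, with medians of -1.34 and -0.50. The short ratio was above 0 for 1032 of the rising and for 119 of the falling genes. These last counts describe genes chosen for a large 24 h ratio, which also enters the difference, and so do not show that changes grew with time. All 24 h arrays lay on one slide and the short arrays on 2 other slides, so the effects of slide and of exposure cannot be told apart in this difference.

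**Figure D2:**
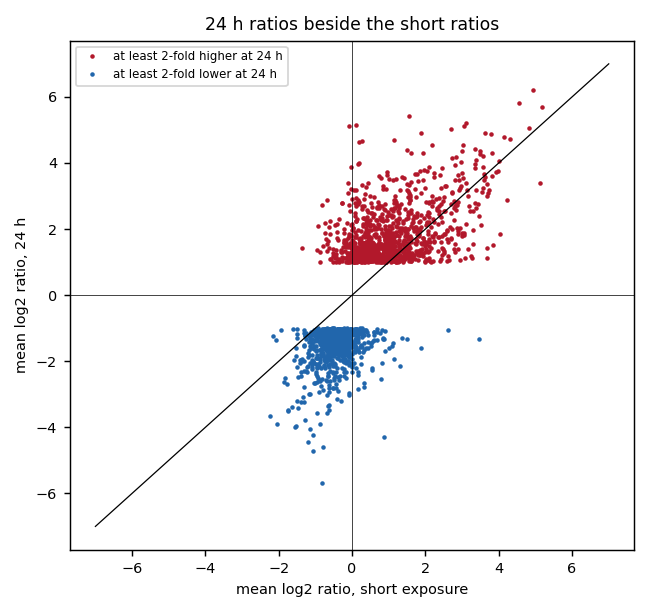
Mean log2 ratio at 24 h (y axis) against the mean log2 ratio after the short exposure (x axis) for the genes that changed at least 2-fold at 24 h and had a value on all 3 arrays, with rising genes in red and falling genes in blue. Points above the diagonal had a higher ratio at 24 h. Most falling genes (713 of 803) were called below their short ratio.

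Most loci that rose or fell at 24 h had no like neighbour next in locus order, but like neighbours were more frequent than the share over all loci. Of 1135 loci that were 2-fold higher and had a next tested locus on the chromosome, 129 (11.4%) were followed by a locus that was 2-fold higher too, while 4.9% of all tested loci were 2-fold higher. Of 798 loci that were 2-fold lower, 81 (10.2%) were followed by a 2-fold lower one, while 3.44% of all loci were 2-fold lower. A step from a higher to a lower neighbour occurred 32 times and the opposite step 30 times. There were 16 runs of at least 3 neighbouring higher loci, with 60 loci in all, and 10 such runs of lower loci, with 33. Neighbouring copies of one gene family can share sequence, so a probe may read more than one of them; this was not tested, because no probe sequence was used here. The runs were found in these values and carry no test as runs.

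A dense group lay on chromosome 10 between Os10g0525200 and Os10g0529700. Of 18 loci tested there, 15 were 2-fold higher at 24 h and the other 3 were lower by less than 2-fold. The median of the 18 was 2.13 at 24 h and 1.35 after the short exposure. Os10g0529700 had 4.07, 3.89 and 3.24 at 24 h against 1.16, 0.77 and 0.95 on the short arrays by its brightest probe, and a 24 h mean of 1.12 over its 3 probes. Os10g0525500 averaged 3.58 at 24 h and 3.62 after the short exposure, and Os10g0527800 averaged 3.40 and 3.12. The neighbours thus differed in their course: 10 of the 18 lay above their short ratio and 3 below it, beside 16.4% and 22.3% of all genes. The stretch was picked for its high 24 h ratios, which also enter this difference. Os10g0525800 was one of those below it, with 1.80, 1.88 and 2.17 at 24 h against 2.65, 2.47 and 2.63. The 3 loci that were lower, Os10g0527100 at -0.36, Os10g0528900 at -0.29 and Os10g0529300 at -0.99, lie between rising loci.

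**Figure D3:**
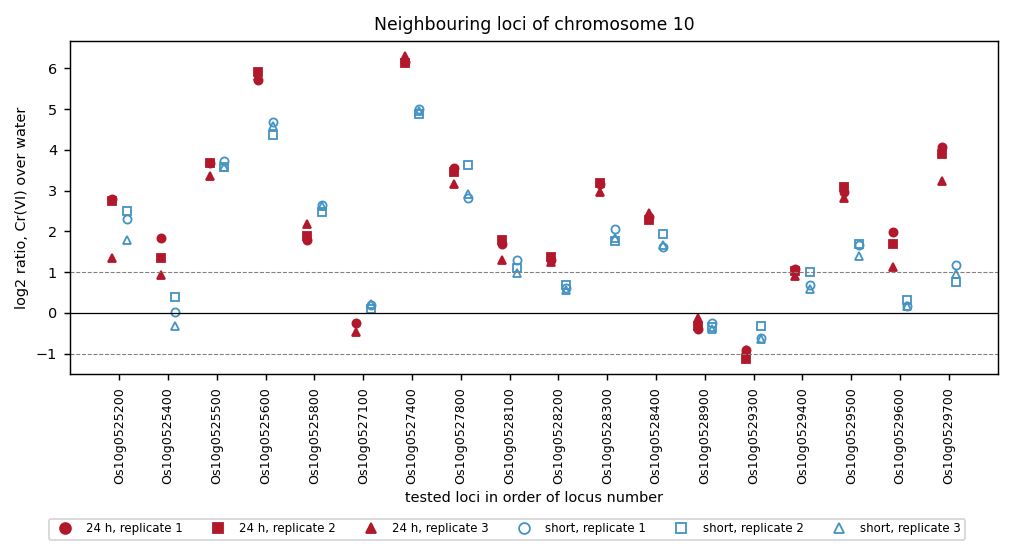
Log2 ratio of Cr(VI) over water (y axis) of the 18 tested loci from Os10g0525200 to Os10g0529700 in locus order (x axis), with the 24 h arrays as filled red symbols and the short arrays as open blue symbols. Dashed lines mark 2-fold. Os10g0527400 and Os10g0525600 stand highest, and 3 loci lie below 0.

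On chromosome 7, a run of 6 loci from Os07g0599300 to Os07g0599900 rose at 24 h with means of 1.16 to 2.78, although its short means ran only from -0.12 to 0.40. Os07g0599500 had 2.35, 2.60 and 3.40 at 24 h against -0.22, 0.72 and -0.28 on the short arrays, a difference of 2.71 (SE 0.321, limma adjusted p = 0.000405). All 6 loci of the run, which was found by its 24 h ratios, lay above their short ratio, as did 727 of all 1147 rising genes. Replicate 2 was the highest short array for Os07g0599500.

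Another run on chromosome 7, of 5 loci from Os07g0142200 to Os07g0142700, had 24 h means of 1.14 to 2.80 and short means of -0.67 to 0.90. Os07g0142200 had 2.45, 2.63 and 3.32 at 24 h against -0.38, 0.11 and -0.57. The 3 loci from Os07g0625400 to Os07g0625600 lay close together, with 24 h means of 3.49 to 3.76 and short means of 1.13 to 1.86. Os07g0625400 itself had 3.74, 3.81 and 3.72 at 24 h and a short mean of 1.86.

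On chromosome 3, the 4 loci from Os03g0734000 to Os03g0734300 averaged 1.75 to 2.63 at 24 h and 0.42 to 0.82 after the short exposure, led by Os03g0734200 with 2.92, 2.70 and 2.28. Runs of 4 falling loci lay on chromosomes 4, 10 and 12. The one from Os04g0308300 to Os04g0308600 had 24 h means of -1.84 to -1.55, led by Os04g0308400 with -1.83, -1.74 and -1.97. The one from Os10g0551800 to Os10g0552300 had means of -2.79 to -1.68, led by Os10g0552200 with -2.99, -2.52 and -2.85, and the one from Os12g0225900 to Os12g0227500 had means of -2.15 to -1.18, led by Os12g0225900. In these 3 falling runs every locus lay below its short ratio, as did 713 of all 803 falling genes. The runs were found by their 24 h ratios, which also enter this difference.

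By chromosome, the share of tested genes that were 2-fold higher ran from 3.92% on chromosome 11 to 6.1% on chromosome 1, with 6.05% on chromosome 10. The share that were 2-fold lower ran from 2.85% on chromosome 3 to 4.86% on chromosome 10. By the evidence written in the probe names, loci with an mRNA were 2-fold higher in 4.6% and 2-fold lower in 3.29% of 16637. Loci of the class COMBINER_EST reached 5.73% and 4.44% of 5043, and those of the class COMBINER 5.34% and 1.76% of 1537.

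Replicate 3 gave the weakest rise in general. Of the 1117 rising genes with 3 values, the ratio smallest in size was on replicate 3 in 704, on replicate 1 in 226 and on replicate 2 in 187. Over all 22752 tested genes with 3 values it was on replicate 3 in 8723, and among the 783 such falling genes in 332. For a small set of rising genes replicate 3 stood further apart. In 56 of the 1147 rising genes, its ratio was lower than both others by at least 1, while replicate 1 and replicate 2 were each that low in 1 gene. Replicate 3 was higher than both others by as much in 7. Of the 56, 37 had a short ratio of 1 or more, where the median short ratio of all rising genes was 0.94. Both channels were well above background on all 3 arrays in 41 of the 56, beside 1021 of the 1147 rising genes. Among the falling genes, replicate 3 was nearer 0 by as much in 0 and further from 0 in 5.

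Os11g0592200 had the widest gap, with 5.56 and 5.14 on replicates 1 and 2 and 1.31 on replicate 3, a mean of 4.0 ± 2.34 (SD, n = 3; limma adjusted p = 0.000845). Without replicate 3 the mean was 5.35, and without replicate 1 it was 3.23. Os10g0416500 had 4.53, 4.43 and 1.46, with 4.48 without replicate 3. Its short values of 3.22, 2.86 and 2.36 lie between those of the 24 h arrays.

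The 3 neighbouring loci Os03g0693800, Os03g0693900 and Os03g0694000 shared the pattern. Os03g0694000 had 6.18, 6.01 and 3.29 at 24 h against -0.05, 0.53 and -0.15 on the short arrays, and its mean of 5.16 ± 1.62 (SD, n = 3; limma adjusted p = 2.75e-05) was 6.09 without replicate 3. Os03g0693800 had 5.68, 5.26 and 3.02, and Os03g0693900 had 5.65, 5.29 and 2.96, and both means were 5.47 without replicate 3. Thus all 3 were far above their short values on every 24 h array, and by how much differed between arrays.

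Among the rising genes with a value on every array, 3 did not keep their sign. Os04g0180400 had 2.15, 2.14 and -0.64 (limma adjusted p = 0.0497), Os04g0179200 had 2.1, 1.40 and -0.30 (limma adjusted p = 0.0286), and Os09g0371300 had 1.51, -0.08 and 2.36 (limma adjusted p = 0.0131). In each of the 3, 1 array went against the others, so the mean depended on which arrays were kept. Without replicate 3 the means were 2.15, 1.75 and 0.72 in the same order. Without replicate 1 the means were 0.75, 0.55 and 1.14, and none of the 3 passed.

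Os07g0429600, on chromosome 7, was among the falling loci on which replicate 3 went further. It had -1.05, -1.47 and -3.30 at 24 h against 0.21, 1.35 and 1.83 on the short arrays, a difference of -3.07 (SE 0.587, limma adjusted p = 0.00416). Its mean of -1.94 was -1.26 without replicate 3. The 2 following loci of its run likewise had their lowest value on replicate 3. Os07g0429700 had -0.60, -0.61 and -2.71, and Os07g0431000 had -0.18, -0.61 and -3.15. Replicate 3 was thus the only array on which either of these 2 fell by 2-fold, and the run rests on it.

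**Figure D4:**
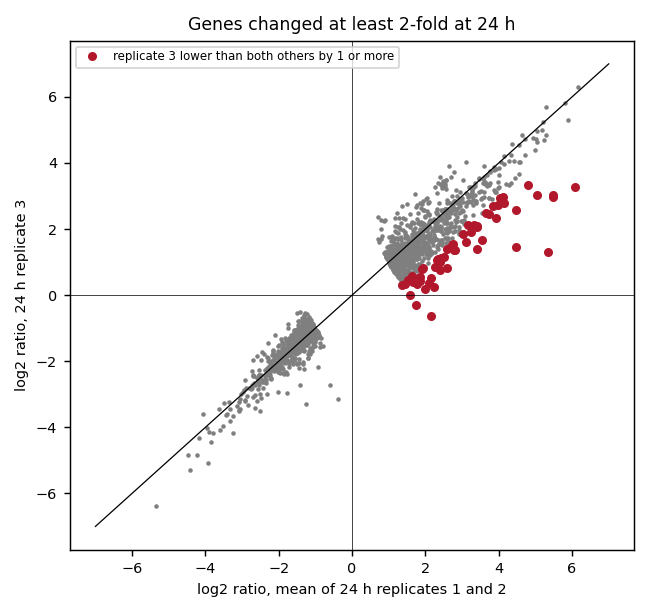
Log2 ratio on replicate 3 of the 24 h exposure (y axis) against the mean of replicates 1 and 2 (x axis) for the genes that changed at least 2-fold at 24 h and had a value on all 3 arrays. The 56 rising genes whose replicate 3 was lower than both other replicates by 1 or more are in red, and the line marks equal ratios.

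Several probes read the same locus for 513 of the 2-fold loci, counting loci with at least 2 probes well above background on all 3 arrays. In 498 of them all probes lay on the same side of 0, and in 323 all were at least 2-fold the same way. The range between the probes of a locus had a median of 0.265 on the log2 scale. For Os11g0592200 the 2 probes averaged 3.71 and 4.0. For Os10g0416500 the 4 probes averaged 2.04 to 3.47, and the mean over all of them was 2.82.

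The array also holds 510 microRNA probes, of which 265 were tested. Their names give a microRNA, a chromosome and one of the tags 3'seq, 5'seq and Mature, and the sources used here do not say which transcript each tag reads. Their median was 0.034, beside 0.016 over all genes tested. They were higher in 76 of 265 cases and lower in 39, beside 33.7% and 30.9% of all genes. The 2-fold calls were 10 higher (3.77%) and 5 lower (1.89%), beside 4.88% and 3.42% of all genes. With processed signals the 2-fold counts were 25 higher and 15 lower. Without replicate 1 the lower count was 23 and the 2-fold lower count was 3. Higher probes numbered 29 of 101 with the tag 3'seq, 34 of 93 with the tag 5'seq and 13 of 71 with the tag Mature. The share to set beside these is the 33.7% of all genes called higher.

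The largest microRNA rise was that of miR528, a family of monocots that targets transcripts of copper proteins such as ascorbate oxidase. The miR528 3'seq probe had 3.23, 3.29 and 3.16 at 24 h against -0.03, -0.10 and 0.06 on the short arrays, a difference of 3.25 (SE 0.0824, limma adjusted p = 9.91e-07). Its 5'seq probe had 1.35, 1.51 and 1.30 at 24 h and a short mean of 0.01. The exposures did not overlap in either probe. For the 3'seq probe the water signal was well above background on 2 of the 3 arrays, and its 24 h mean was 5.09 with processed signals. The third tested probe of the family averaged 0.09 and was not called higher or lower.

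The miR408 family, which targets transcripts of plantacyanins and laccases, 2 kinds of copper protein, and is known to rise when copper is low, rose with all 3 probes. The miR408 5'seq probe had 1.00, 1.70 and 1.66 at 24 h against -0.39, -0.18 and -0.20 on the short arrays, a difference of 1.70 (SE 0.178, limma adjusted p = 0.000236). The Mature probe had 0.74, 1.13 and 1.27, and the 3'seq probe averaged 0.99. Replicate 1 gave the lowest value for all 3. Both tested probes of miR398, which targets copper superoxide dismutases, rose by less than 2-fold, at 0.58 and 0.66. Both families hold few probes, and 33.7% of all genes were called higher.

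The miR399 family, known to rise in phosphate starvation and to target the PHO2 transcript, a brake on phosphate uptake, was split. The miR399i Mature probe had 2.33, 2.80 and 3.48 at 24 h against 0.01, 0.57 and -0.10, a difference of 2.71 (SE 0.282, limma adjusted p = 0.00023). The miR399b 3'seq probe had 2.08, 2.71 and 3.57, with a short mean of 0.13. Both are listed on chromosome 2 and both were highest on replicate 3. Of the other 11 tested probes 5 rose, none by 2-fold, beside 33.7% of all genes called higher. The family median was 0.19.

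The family miR160 acts on auxin response factors, and its miR160e 3'seq probe had 1.47, 1.67 and 2.07 at 24 h against 0.27, 0.22 and 0.16, a difference of 1.52 (SE 0.143, limma adjusted p = 0.000141). The other probes of miR160 stayed under 2-fold, with 3 of 11 higher and 3 lower in all. Of all genes tested, 33.7% were called higher and 30.9% lower. All 4 probes of miR531 rose, led by the 5'seq probe of chromosome 11 with 0.73, 1.06 and 1.30. The miR416 3'seq probe had 1.28, 1.33 and 1.18 and the miR414 5'seq probe had 1.01, 1.09 and 1.13. These last 2 had risen after the short exposure too, with means of 1.19 and 0.85, and the miR416 difference of 0.07 (SE 0.111) did not pass (limma adjusted p = 0.657).

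With the offset of 50, all 5 microRNA probes with a 2-fold fall belong to miR171, a family that targets GRAS transcription factors of meristems. The miR171h 5'seq probe had -2.1, -1.80 and -1.84 at 24 h against -1.07, -0.85 and -0.97 on the short arrays, a difference of -0.95 (SE 0.106, limma adjusted p = 0.000325). The miR171h 3'seq probe had -1.48, -1.31 and -1.23, with a treated signal well above background on 1 of the 3 arrays. The arrays of the 2 exposures did not overlap for either probe.

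The miR171g 3'seq probe had -1.37, -2.38 and -1.72 at 24 h against -2.01, -0.20 and -1.05, so that the exposures overlapped. The miR171f 5'seq probe had -1.52, -0.93 and -0.87, and the miR171f 3'seq probe had -1.49, -0.72 and -0.91. Neither miR171f probe was shown to differ from its short ratio (limma adjusted p = 0.369 and 0.366). In all, 11 of the 19 tested probes of miR171 fell and 1 rose, with a median of -0.20, beside 30.9% of all genes called lower, and 7 fell without replicate 1. The tag Mature did not reach 2-fold for any member of the family.

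**Figure D5:**
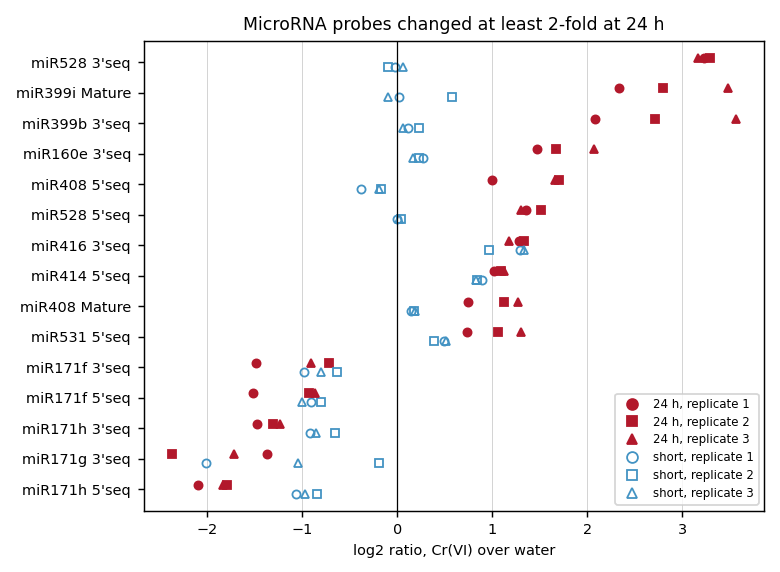
Log2 ratio of Cr(VI) over water (x axis) of the 15 microRNA probes that changed at least 2-fold at 24 h (rows), with the 24 h arrays as filled red symbols and the short arrays as open blue symbols. The 2 miR528 probes, the 2 miR399 probes, miR160e and miR408 5'seq have short values near 0, whereas the miR171, miR416 and miR414 probes had moved after the short exposure too.

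The other families stayed under 2-fold. In the family miR156, which acts on SPL factors, rises numbered 10 and falls 1 among 22 probes, with a highest value of 0.87. In miR168, directed at the ARGONAUTE protein that loads microRNAs, 4 of 5 rose, with a median of 0.23. Of miR395, which is known to rise when sulfate is low, 7 of 29 rose and 0 fell, with a highest value of 0.39. By comparison, 33.7% of all genes tested were called higher.

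Falling probes outnumbered rising ones in miR396, which targets growth-regulating factors, with 3 of 5 lower and a median of -0.22. Both probes called among the 3 of miR319, which targets TCP factors, were lower. Of miR159, which targets GAMYB-type factors, 3 of 10 were lower and 1 higher. Of all genes tested, 30.9% were called lower, so the share of miR159 was near the background, and the other 2 families hold few probes. Of miR166, which targets HD-ZIP III factors, 7 of 30 rose and 4 fell, with values from -0.54 to 0.57, of miR169, which targets NF-YA factors, 5 of 24 rose and 3 fell, and of miR164, which targets NAC factors, 4 of 16 rose and 0 fell.

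Dim genes set the limit of these sizes. The offset of the background correction pulls the ratio of a dim gene towards 0, and for 25 of the 59 loci and microRNA probes named by rule or for their pattern, Agilent's processed signals gave a fold that differed by more than 1.5 times. The direction at 24 h was the same in every setting that gave a value, which for the strict filter on both channels were 44 of the 59, and the call was lost for Os04g0179200, Os04g0180400 and Os09g0371300 in one or more settings. Settings that changed only the filter, the estimate of spread or the short arrays left these 24 h means as they were, so the direction was fixed there.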

How the data were processed

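Per the file headers, the authors' scanner output came from Agilent Feature Extraction 10.7.1.1 and gives the intensity of each spot as median pixel brightness with its local background in both channels, besides flags for outliers and for signals above background. Total RNA was amplified and labelled by in vitro transcription, per the labels' protocols. Log2 ratios in the table the authors deposited (42475 probes) equal those of the processed signals (r = 1, medians at 24 h from -0.0789 to 0.0385) and entered only as an alternative, through the processed signals.

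The median intensities were background-corrected (normexp, offset 50), normalized by loess and fitted with limma 3.58.1 in R 4.3.3. Control spots, outlier spots (1449 to 1936 of 43734 per 24 h array) and 59 probes named as controls were left out. Spots of a probe were averaged and the brightest probe stood for a locus. Tested genes had a signal flagged as well above background, in one channel or the other, on 3 or more of 6 arrays and 2 or more values per exposure, which left 23219 of 29690 loci and 265 of 510 microRNA probes. One fit (lmFit, eBayes; 4 residual and 4.37 prior degrees of freedom) gave the mean of each exposure against 0 and the 24 h minus short difference, with Benjamini-Hochberg adjustment over 23484 genes. The number of arrays limits the precision. The pipeline was tested on simulated data.

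The members and lists were chosen with earlier results of these data known. The rule for named genes took the 12 largest rises and falls among loci of one sign on all 3 arrays, called, and well above background in a channel on each array, and the 2-fold microRNA probes. Its demand for an annotation could not be applied, since 0 of 29690 locus numbers matched the reference table, and 0 of 29 gene lists could be filled. A further set of loci, named for runs, bounds or a deviating replicate, and other run members and family members were chosen after their values were seen. Replicate numbers do not pair the samples: deviations of same-numbered arrays correlated at -0.234, -0.118 and -0.1. Alternatives covered background, normalization, filters, probe rule, variance prior, blocks and the omission of each array.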

Additional observations from a re-analysis of the deposited data

Results flagged for a closer look

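The response at 24 h differed from that of the short exposure for the loci and microRNA probes below, by the difference of the 2 mean log2 ratios in the limma fit (24 h minus short, adjusted p under 0.05 over all genes tested). The 24 h arrays lay on a slide of their own, so the effects of slide and of exposure cannot be told apart.

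Among loci whose ratio was higher at 24 h, the difference was 5.21 for Os02g0593200, 5.05 for Os03g0694000, 4.45 for Os03g0693900, 4.39 for Os03g0693800, 3.86 for Os09g0483200 and 3.81 for Os11g0592200. It came to 3.08 for Os07g0142200, 3.05 for Os09g0452700, 2.89 for Os06g0507300, 2.77 for Os10g0529700, 2.71 for Os07g0599500 and 2.33 for Os06g0146600, which was -0.21 with Agilent's processed signals (limma adjusted p = 0.52). Further differences were 2.1 for Os02g0179600, 2.08 for Os01g0627800, 1.96 for Os03g0734200, 1.90 for Os07g0625400, 1.27 for Os01g0155000 and 1.26 for Os10g0525600. Smaller ones were 1.26 for Os10g0527400 and 0.59 for Os01g0850900.

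Among loci whose ratio was lower at 24 h, the difference was -5.18 for Os09g0409100, -4.88 for Os01g0550800, -3.81 for Os06g0277900, -3.67 for Os09g0491100, -3.24 for Os11g0184300 and -3.18 for Os11g0609500. It came to -3.07 for Os07g0429600, -3.02 for Os02g0650300, -2.90 for Os11g0307300, -2.47 for Os10g0392900, -2.44 for Os05g0212900 and -2.43 for Os11g0306400. Further differences were -1.86 for Os05g0192100, -1.48 for Os09g0349600, -1.47 for Os10g0552200, -1.36 for Os04g0308400, -1.24 for Os12g0225900 and -0.76 for Os07g0281700.

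Among microRNA probes the difference was 3.25 for miR528 3'seq, 2.65 for miR399b 3'seq, 2.71 for miR399i Mature, 1.70 for miR408 5'seq and 1.52 for miR160e 3'seq. Smaller rises were 1.38 for miR528 5'seq, 0.88 for miR408 Mature, 0.57 for miR531 5'seq and 0.22 for miR414 5'seq, which was -0.0212 with median centring. Lower at 24 h were -0.95 for miR171h 5'seq and -0.53 for miR171h 3'seq.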

How the results depend on the processing

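Across 16 alternatives, 912 of the 929 values of the 59 named features at 24 h kept their direction and their call, 17 kept the direction and lost the call, and 0 reversed. Most of these features were picked for large 24 h ratios. The filters, the variance prior, the blocks, the fit of the 24 h arrays alone and the omission of a short array left their 24 h means unchanged. Under those alternatives the direction could not reverse, so the tally is no measure of how robust the values are. Under Agilent's processed signals, 2-fold calls at 24 h were 1870 higher and 1731 lower, and those of the difference between exposures 942 and 1537. Median centring gave 5006 genes higher and 8728 lower at 24 h by adjusted p alone, 960 higher and 1365 lower by 2-fold or more, and 1840 higher and 6400 lower in the difference. The cause was not tested. Leaving out one array at a time gave 12679 to 15308 calls at 24 h (6637 to 7964 higher, 6042 to 7344 lower), with 1102 to 1247 at least 2-fold higher and 792 to 858 lower. For the difference it gave 6857 to 8300 calls (2825 to 3483 higher, 4032 to 4817 lower), with 493 to 556 and 874 to 939 at 2-fold. With the replicate number as a block, 14084 genes were called at 24 h and 7493 in the difference. Without replicate 3 of the 24 h arrays, 8 of the 59 folds moved by over 1.5 times, and the mean over all probes of a locus moved those of Os10g0416500 (2.82) and Os10g0529700 (1.12). The strict filter on both channels gave a value for 44 of the 59. The 24 h minus short difference changed sign with processed signals for Os04g0203600 (-0.55), Os06g0146600 (-0.21), Os04g0179200 (-0.40), Os04g0180400 (-0.18), Os10g0416500 (-0.53) and miR416 3'seq (-0.0297). It did so with median centring for miR414 5'seq (-0.0212) and miR416 3'seq (-0.0568). Over the arrays left out in turn it ran from -0.0107 to 0.42 for Os04g0206600, -0.32 to 0.0052 for miR171f 5'seq, -0.0446 to 0.14 for miR416 3'seq, -0.46 to 0.74 for Os04g0179200 and -0.27 to 1.13 for Os04g0180400. Dim signal limits the size of a ratio, since the normexp offset of 50 shrinks it.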
